A study of Mus musculus with 22 samples.

Results

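Regulators of G protein signalling (RGS proteins) were followed in mouse granulation tissue through 7 genes, *Rgs1*, *Rgs2*, *Rgs3*, *Rgs4*, *Rgs10*, *Rgs16* and *Rgs18*, among the 18193 genes with a probe set of their own on the array. Every probe set that the platform annotation gives to one of these genes alone was taken, which yields 18 of the 45037 probe sets tested: 4 each for *Rgs2* and *Rgs3*, 3 each for *Rgs4* and *Rgs16*, 2 for *Rgs18* and 1 each for *Rgs1* and *Rgs10*. The genes were chosen by a measured value, since all *Rgs2* probe sets had a higher mean in *Mmp13*-/- than in WT tissue at 14 d. The genotype difference at 14 d is therefore a description for every gene, and so are the changes of *Rgs2* that involve the 14 d arrays, and their counts support nothing.

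Mice aged 5 to 8 weeks carried a viscose cellulose sponge beneath the skin of the back, and the tissue that grew into it was collected. WT mice and mice that lack *Mmp13*, which encodes the collagen-cleaving matrix metalloproteinase 13, were compared at 7 d (3 arrays per genotype), 14 d (4 per genotype) and 21 d (4 per genotype), with 1 sample analysed from each mouse according to the design description. The labels give a mixed C57BL/6 and 129 background, while the design description states at least 7 generations of backcrossing to C57BL6, with WT mice derived from the backcrossed heterozygotes. The knockout is constitutive, so no cell type of the tissue was spared, and RNA came from the ends of the sponge only. Values are log2 signals from Affymetrix 3' arrays normalised by RMA, so a difference of 1 is a doubling, and levels of separate probe sets are not comparable with each other.

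RGS proteins end the signal of G protein-coupled receptors. A receptor that has bound its ligand loads the alpha subunit of a heterotrimeric G protein with GTP, and an RGS protein speeds up the hydrolysis of that GTP, which returns the G protein to its resting state. Members are known for short-lived, inducible expression, and they set the response of vascular smooth muscle to constrictors, of leukocytes to chemokines and of platelets to thrombin.

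Hybridization took place in 2 series. Series 1, with 12 arrays from 2 µg of RNA and a one-cycle kit, covers both genotypes at 7 d and replicates 1 to 3 at 14 d. Series 2, with 10 arrays from 250 ng and a 3' IVT kit, covers replicate 4 at 14 d and all of 21 d. The offset between the series thus rests on the 14 d arrays, and any change from 14 d to 21 d depends on it. Over all probe sets the median absolute offset was 0.19, and 13.3% had an offset at an adjusted p under 0.05. *Mmp13* had a lower mean in *Mmp13*-/- tissue at every day (8.37 against 10.69 at 7 d, 8.31 against 11.72 at 14 d and 7.91 against 11.17 at 21 d), though the sources used here do not say whether its probe set lies in the deleted part. Fibroblast markers (10 genes) averaged 10.99 to 11.49 and macrophage markers (10 genes) 9.58 to 10.32 over the arrays, so the markers of both cell types were present. WT 7 d replicate 1 stood apart, with pericyte markers (8 genes) at 5.25 against 6.49 to 7.65 on the other arrays. Other marker lists depended on it as well. Without it the median genotype difference at 7 d went from 0.62 to 0.12 for endothelial markers (10 genes). It went from 0.07 to -1.05 for skeletal muscle markers (9 genes), but only from 0.025 to 0.022 for fibroblast markers. The called WT changes from 7 d to 14 d are also given without this array. In a whole tissue, fewer cells of a type and less RNA per cell cannot be told apart.

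The stretch before the gene start is shown for *Rgs2*, *Rgs4* and *Rgs16*, the genes the results turn on among the 5 of 7 with a promoter in the RefSeq table used (GRCm38.p6). Each line holds the 250 bases before the start, 5′ to 3′ on the strand of the gene. Capitals mark the CCAAT box (CCAAT, or ATTGG on the opposite strand) and the cAMP response element half-site (TGACG, or CGTCA on the opposite strand).
Rgs2 promoter, chr1:144004150-144004399, minus strand: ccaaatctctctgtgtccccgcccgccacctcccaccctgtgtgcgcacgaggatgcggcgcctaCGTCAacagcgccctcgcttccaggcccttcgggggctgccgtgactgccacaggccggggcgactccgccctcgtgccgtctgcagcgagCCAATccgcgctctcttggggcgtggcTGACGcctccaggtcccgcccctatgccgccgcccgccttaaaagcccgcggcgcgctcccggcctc
Rgs4 promoter, chr1:169747643-169747892, minus strand: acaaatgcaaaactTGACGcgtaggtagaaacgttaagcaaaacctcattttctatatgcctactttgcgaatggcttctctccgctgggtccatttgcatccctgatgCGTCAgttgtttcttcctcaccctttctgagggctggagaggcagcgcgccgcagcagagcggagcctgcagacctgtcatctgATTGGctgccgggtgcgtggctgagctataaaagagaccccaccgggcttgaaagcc
Rgs16 promoter, chr1:153740103-153740352, plus strand: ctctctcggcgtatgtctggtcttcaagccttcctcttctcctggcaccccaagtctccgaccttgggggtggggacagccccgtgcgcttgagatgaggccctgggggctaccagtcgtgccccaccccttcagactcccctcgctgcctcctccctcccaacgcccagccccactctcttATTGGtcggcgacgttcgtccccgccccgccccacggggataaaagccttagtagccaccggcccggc
The *Rgs2* stretch holds 2 half-sites, beginning 185 and 67 bases before the start, and a CCAAT box at 94. That of *Rgs4* also holds 2 half-sites, at 236 and 141, and a CCAAT box on the opposite strand at 57, while *Rgs16* has a CCAAT box on the opposite strand at 68 and no half-site. Of the 32851 promoters in the table, 17.8% hold a half-site and 33.8% a CCAAT box on either strand. The *Rgs4* stretch has a TATA box (TATAAA) at 31, a motif found in 12.4% of promoters, and those of *Rgs2* and *Rgs16* have none but hold 4 and 2 GC boxes (GGGCGG, found in 32.7%). These are letter matches in one window, and the motifs were chosen after the sequences and signals had been seen.

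*Rgs1*, *Rgs2*, *Rgs4*, *Rgs16* and *Rgs18* are on chromosome 1, where the protein-coding genes *Rgs2*, *Rgs13*, *Rgs1*, *Rgs21* and *Rgs18* follow one another with no other between them. *Rgs4* sits next to *Rgs5* and *Rgs16* next to *Rgs8*, whereas *Rgs3* is on chromosome 4 and *Rgs10* on chromosome 7.

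*Rgs2* encodes a regulator with a preference for the Gq alpha subunit and is known for its part in vascular tone. On 1419248_at and 1419247_at its mean signal was highest in *Mmp13*-/- tissue at 14 d. On 1447830_s_at it was highest in *Mmp13*-/- tissue at 21 d, and on 1443250_at in *Mmp13*-/- tissue at 7 d. The gene was chosen for its genotype difference at 14 d, and this order uses the same 14 d arrays. On probe set 1419248_at the WT arrays read 9.53, 9.48 and 9.23 at 7 d, 9.32, 9.11, 9.06 and 9.54 at 14 d, and 9.65, 9.58, 8.89 and 9.52 at 21 d. Arrays of *Mmp13*-/- tissue read 9.60, 9.57 and 9.36 at 7 d, 9.83, 9.84, 10.07 and 9.64 at 14 d, and 9.32, 9.49, 9.67 and 9.55 at 21 d. Every *Mmp13*-/- array at 14 d lay above every WT array of that day, and the genotypes overlapped at 7 d and 21 d. The mean of 9.85 ± 0.18 (SD, n = 4) in *Mmp13*-/- tissue at 14 d exceeded the next highest group mean, 9.51 ± 0.13 (SD, n = 3) in *Mmp13*-/- tissue at 7 d, by more than either SD. The other 5 groups, down to 9.26 ± 0.22 (SD, n = 4) in WT tissue at 14 d, each differed from their neighbour in order by less than the spread.

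At 14 d the genotype difference of *Rgs2* was 0.59 on 1419248_at, 0.81 on 1447830_s_at and 0.60 on 1419247_at, or 1.50-fold, 1.75-fold and 1.52-fold. On 1443250_at, whose mean of 2.99 lay below the median of all probe sets (4.22), it was 0.05. The difference was larger in series 1. Among replicates 1 to 3 the differences were 0.75, 0.96 and 0.77 on the 3 bright probe sets, with every *Mmp13*-/- array above every WT array on each of them. In the single pair of series 2 (replicate 4) they were 0.10, 0.36 and 0.10, and -0.30 on the dim probe set. On 1419247_at the WT arrays at 14 d read 8.98, 8.86, 8.67 and 8.81, and the *Mmp13*-/- arrays 9.62, 9.44, 9.76 and 8.91, so that replicate 4 of *Mmp13*-/- tissue fell among the WT values.

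The bright *Rgs2* probe set 1447830_s_at had a large offset between series. Its WT arrays at 14 d read 8.78, 8.55 and 8.46 in series 1 and 9.86 in series 2, and its *Mmp13*-/- arrays 9.46, 9.50 and 9.71 in series 1 and 10.22 in series 2. The fitted offset of 0.96 was larger than that of 97.1% of probe sets, against 0.05 on 1419248_at and -0.36 on 1419247_at. Correlation between 1419248_at and 1447830_s_at over the 22 arrays was r = 0.50 as deposited and 0.82 with the offset removed, and the dim probe set stayed between 0.06 and 0.28 with the other 3 after removal.

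**Figure D1:**
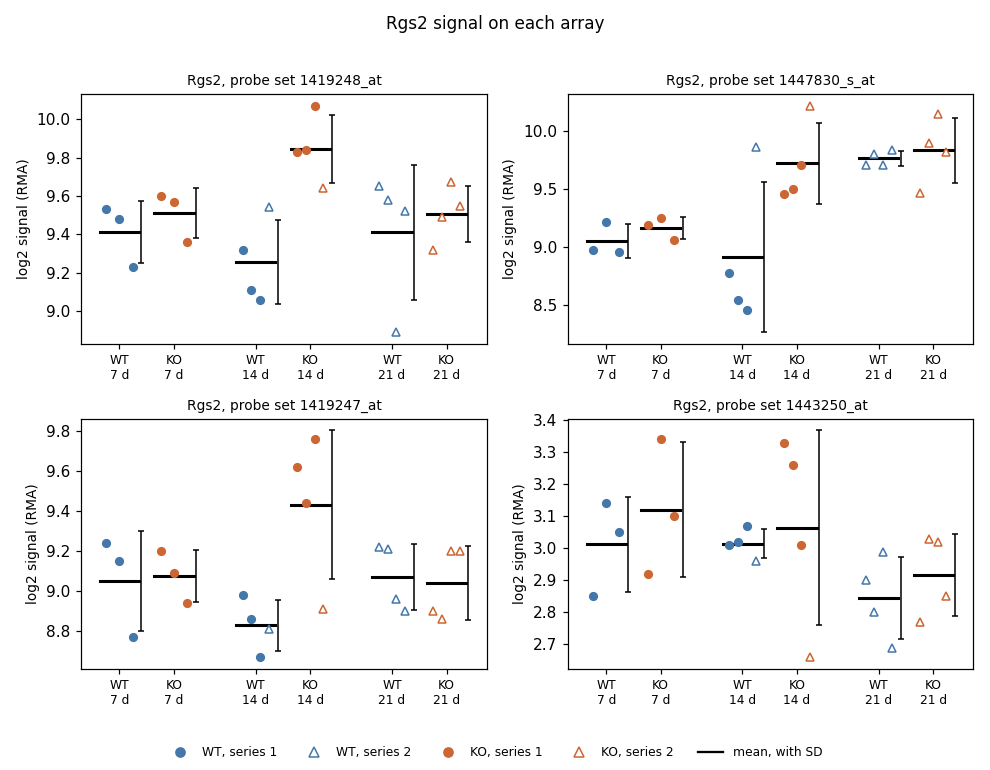
*Rgs2* log2 signal (y axis) of each array by genotype and day (x axis) for its 4 probe sets, with circles for series 1, open triangles for series 2, lines for group means and bars for SD. On 1419248_at all 14 d *Mmp13*-/- arrays (9.64 to 10.07) lie above the WT arrays (9.06 to 9.54), and on 1447830_s_at the series 2 arrays lie high in both genotypes.

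At 7 d and 21 d, days that the choice of *Rgs2* did not use, no genotype difference of the gene passed the test. At 7 d the differences were 0.10 (95% interval -0.27 to 0.46) on 1419248_at, 0.11 (-0.21 to 0.43) on 1447830_s_at, 0.02 (-0.31 to 0.36) on 1419247_at and 0.11 (-0.17 to 0.39) on the dim probe set, with an adjusted p of 1 in limma for each. At 21 d they were 0.10 (-0.22 to 0.41), 0.07 (-0.21 to 0.35), -0.03 (-0.32 to 0.26) and 0.07 (-0.17 to 0.31), with adjusted p-values in limma from 0.847 to 0.953. From 7 d to 14 d the WT signal moved by -0.17, -0.38 and -0.13 and the *Mmp13*-/- signal by 0.32, 0.32 and 0.45 on the 3 bright probe sets. The dim probe set moved by 0.08 and 0.02. The direction on the bright probe sets was thus opposite in the genotypes, but it rests on the 14 d arrays that the choice used. None of these changes passed the test. From 14 d to 21 d the fitted changes were 0.11, 0.13 and 0.51 in WT tissue and -0.38, -0.61 and -0.12 in *Mmp13*-/- tissue. The 0.51 was 0.93 without WT 14 d replicate 4 and 0.26 without *Mmp13*-/- 14 d replicate 4, and the -0.61 was -0.39 and -0.99 (these are the 2 arrays that link the series). Leaving out the series term turned the -0.61 to 0.11.

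Markers of other cells had different means in the genotypes at 14 d beside *Rgs2*. Endothelial markers (10 genes) had a lower value in *Mmp13*-/- tissue for 10 of 10 genes (median -0.27) and pericyte markers for 8 of 8 (median -0.28), with no gene of these lists past the test. Fibroblast markers were lower for 8 of 10 genes (median -0.27), and *Lum*, the collagen-binding proteoglycan lumican, was called (-0.94, adjusted p = 0.0274 in limma). Adipocyte markers were lower for 6 of 6 (median -0.30) and neutrophil markers for 7 of 9 (median -0.26), while macrophage markers were higher for 7 of 10 (median 0.05). Keratinocyte markers averaged 5.31 and 5.69 on WT replicates 1 and 3, above the 3.67 to 3.97 of the other 14 d arrays. Immediate early genes such as *Fos* and *Dusp1*, which respond fast to stimulation and handling of cells, were higher for 9 of 20 genes (median -0.04). The part of these cell markers in the *Rgs2* difference was not tested, and with any one array left out the difference on 1419248_at ranged from 0.50 to 0.75.

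*Rgs4*, which encodes a regulator of Gi and Gq signals known from brain, heart and smooth muscle, rose from 7 d to 14 d in both genotypes. On 1416286_at the WT arrays read 3.28, 4.58 and 4.86 at 7 d, 5.86, 5.72, 6.23 and 6.01 at 14 d, and 6.34, 6.51, 6.30 and 6.39 at 21 d. Arrays of *Mmp13*-/- tissue read 4.58, 4.60 and 4.86 at 7 d, 6.05, 6.24, 6.91 and 6.04 at 14 d, and 5.97, 6.13, 5.76 and 5.94 at 21 d. Every 7 d array lay below every later array. In WT tissue the rise was 1.75 ± 0.27 (SE), or 3.37-fold (adjusted p = 0.00173, limma), and in *Mmp13*-/- tissue 1.67 ± 0.27 or 3.17-fold (adjusted p = 0.00502, limma). On 1416287_at the rise was 1.14 (adjusted p = 0.0136) in WT and 1.03 (adjusted p = 0.0528) in *Mmp13*-/- tissue, and only the former passed the test. On 1448285_at, a dim probe set with a mean of 3.03, it was 0.80 (adjusted p = 0.0302) and 0.84 (adjusted p = 0.0411). Both calls of this dim probe set were lost without the series term (0.66 and 0.70, adjusted p of 0.178 and 0.221 in limma), and that in *Mmp13*-/- tissue in 11 of 28 alternatives.

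Within series 1 the rise of *Rgs4* was 1.70, 1.10 and 0.74 on the 3 probe sets in WT tissue (adjusted p of 0.0279, 0.0759 and 0.0218 in limma) and 1.72, 1.07 and 0.90 in *Mmp13*-/- tissue (0.0370, 0.115 and 0.0134), so the WT call on 1416287_at was lost there. Without WT 7 d replicate 1, the array that stood apart in several marker lists, the WT rise on 1416286_at was 1.27 (adjusted p = 0.00332), on 1416287_at 0.70 (adjusted p = 0.0319) and on 1448285_at 0.67 (adjusted p = 0.129). The change in the genotype difference from 7 d to 14 d was -0.09 (95% interval -0.86 to 0.69), -0.12 (-0.79 to 0.56) and 0.04 (-0.50 to 0.57). No interval of the genotype difference at 7 d or 21 d excluded 0 for any *Rgs4* probe set. Without WT 7 d replicate 1 the 7 d difference went from 0.44 to -0.04 on 1416286_at and from 0.15 to -0.29 on 1416287_at. At 21 d all *Mmp13*-/- arrays on 1416286_at lay below all WT arrays, with a difference of -0.43 (95% interval -0.94 to 0.07, adjusted p = 0.498 in limma), but 1416287_at differed by 0.00 and 1448285_at by 0.06. From 14 d to 21 d the change on 1416286_at was 0.54 in WT and -0.25 in *Mmp13*-/- tissue, neither past the test (adjusted p of 0.477 and 0.778 in limma). The genotype difference at 21 d minus that at 14 d was -0.79 there (95% interval -1.51 to -0.07). It did not pass the test (adjusted p = 0.727 in limma). On 1416287_at it was -0.04 (-0.66 to 0.59) and on 1448285_at 0.11 (-0.39 to 0.61).

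**Figure D2:**
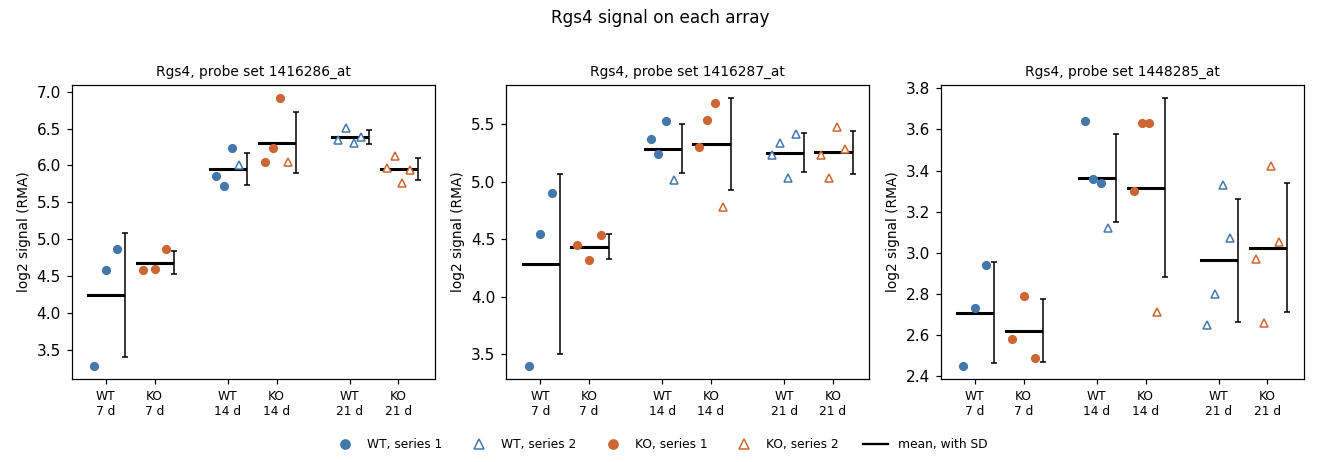
*Rgs4* log2 signal (y axis) of each array by genotype and day (x axis) for its 3 probe sets, with circles for series 1, open triangles for series 2, lines for group means and bars for SD. On 1416286_at the 7 d arrays (3.28 to 4.86) lie below all later arrays (5.72 to 6.91) in both genotypes.

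Contractile and mural cell markers moved beside *Rgs4*. From 7 d to 14 d, 8 of 9 myofibroblast and smooth muscle markers had a higher mean at 14 d in WT and 8 of 9 in *Mmp13*-/- tissue. The list medians were 0.52 and 0.24 against a median of 0.00 over all genes. The rise was called for 3 in WT tissue (*Myl9*, *Tagln* and *Acta2*, by 1.98, 1.83 and 1.14), beside 296 of all 18193 genes. In *Mmp13*-/- tissue it was called for 2 (*Tagln* and *Myl9*, by 1.88 and 1.66), beside 84 of all genes. Pericyte markers had a median change of 1.15 in WT tissue, where *Pdgfrb* and *Notch3* passed the test, and of 0.11 in *Mmp13*-/- tissue, where none did. Without WT 7 d replicate 1 the WT median of the pericyte list was 0.56 with no gene called (*Pdgfrb* 1.14 and *Notch3* 0.92, adjusted p of 0.0639 and 0.0758 in limma), and that of the smooth muscle list 0.45, with *Myl9* (1.52) and *Tagln* (1.26) called and *Acta2* at 0.69 (adjusted p = 0.153). The mean level of the smooth muscle list per array ran from 5.54 to 6.74 in WT and 6.19 to 6.51 in *Mmp13*-/- tissue at 7 d and from 6.77 to 7.36 at 14 d over both genotypes. The part of these cells in the rise of *Rgs4* was not tested.

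*Rgs1* (1417601_at) encodes a leukocyte regulator that dampens responses to chemokines. It fell in WT tissue between 7 d and 14 d. The WT arrays read 10.69, 10.38 and 10.18 at 7 d, 9.88, 9.91, 9.18 and 10.05 at 14 d, and 9.69, 9.91, 9.65 and 9.90 at 21 d, so that every later WT array lay below the 7 d arrays. The *Mmp13*-/- arrays read 10.64, 10.30 and 10.26 at 7 d, 10.15, 10.12, 10.04 and 10.26 at 14 d, and 10.22, 10.32, 10.18 and 10.57 at 21 d. In WT tissue the change was -0.73 ± 0.17 (SE, adjusted p = 0.0274, limma), and in *Mmp13*-/- tissue -0.33 (adjusted p = 0.843, limma). The changes were not shown to differ, since the interaction was 0.40 (95% interval -0.08 to 0.88) with an adjusted p of 1. The WT fall was -0.76 within series 1 (adjusted p = 0.0626), -0.52 without WT 14 d replicate 3 (adjusted p = 0.119) and -0.59 without WT 7 d replicate 1 (adjusted p = 0.128).

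Every *Mmp13*-/- array of *Rgs1* lay above every WT array at 21 d, with a difference of 0.54 or 1.45-fold (95% interval 0.22 to 0.85, adjusted p = 0.155 in limma), which did not pass the test. At 14 d the difference was 0.39, and 0.21 without WT replicate 3, whose 9.18 was the lowest *Rgs1* value of all arrays. Every *Mmp13*-/- array lay above the WT arrays within series 1 (difference 0.45), and the series 2 pair differed by 0.21. At 7 d the difference was -0.02 (95% interval -0.38 to 0.35). The mean macrophage marker level per array overlapped between the genotypes (10 markers, 9.58 to 9.80 in WT and 9.62 to 10.32 in *Mmp13*-/- tissue at 21 d), and no macrophage marker passed the test in any comparison between genotypes or days. Its part in the *Rgs1* values was not tested.

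*Rgs16* encodes a regulator induced by inflammatory stimuli and active on Gi and Gq. Its means were higher in *Mmp13*-/- tissue on all 3 probe sets at each day, though by little on 1451452_a_at at 7 d and 14 d. On 1455265_a_at the WT arrays read 6.53, 6.41 and 6.66 at 7 d, 6.65, 6.67, 6.47 and 6.89 at 14 d, and 6.54, 6.42, 6.36 and 6.28 at 21 d. The *Mmp13*-/- arrays read 6.50, 6.67 and 6.91 at 7 d, 7.13, 6.82, 6.87 and 6.97 at 14 d, and 6.97, 6.96, 6.61 and 7.32 at 21 d. The genotypes did not overlap at 21 d, where the difference was 0.56 or 1.48-fold (95% interval 0.29 to 0.84, adjusted p = 0.0858 in limma) and missed the threshold. With any one array left out it ranged from 0.45 to 0.68. It passed in 1 of 30 alternatives, without *Mmp13*-/- replicate 3, the lowest of its group (0.68, adjusted p = 0.0448 in limma). At 21 d the other probe sets (1426037_a_at and 1451452_a_at) differed by 0.67 (95% interval 0.22 to 1.13, adjusted p = 0.222) and 0.35 (0.00 to 0.70, adjusted p = 0.418). The 0.67 fell to 0.39 when WT replicate 3, a low array at 4.37, was left out.

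On 1426037_a_at the WT arrays of *Rgs16* read 5.65, 5.66 and 5.57 at 7 d and 5.86, 5.97, 5.87 and 5.70 at 14 d. The *Mmp13*-/- arrays read 5.77, 6.04 and 6.12 at 7 d and 6.51, 6.11, 6.20 and 6.58 at 14 d. All *Mmp13*-/- arrays thus lay above the WT arrays at both days. The differences were 0.35 at 7 d (95% interval -0.18 to 0.88, adjusted p = 1 in limma) and 0.50 at 14 d. On 1451452_a_at they were 0.067 at 7 d (95% interval -0.34 to 0.47) and 0.065 at 14 d, with -0.14 in the series 2 pair. Correlation between 1426037_a_at and 1451452_a_at was r = 0.19 as deposited and -0.04 with the offset removed. Over time no *Rgs16* probe set passed the test: in WT tissue 1455265_a_at changed by 0.10 from 7 d to 14 d and by -0.39 from 14 d to 21 d (adjusted p of 0.99 and 0.308), and in *Mmp13*-/- tissue by 0.21 and -0.10 (adjusted p of 1 and 0.839). The -0.39 was -0.23 without WT 14 d replicate 4. The genotype difference at 21 d minus that at 14 d was 0.29 (95% interval -0.10 to 0.67).

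**Figure D3:**
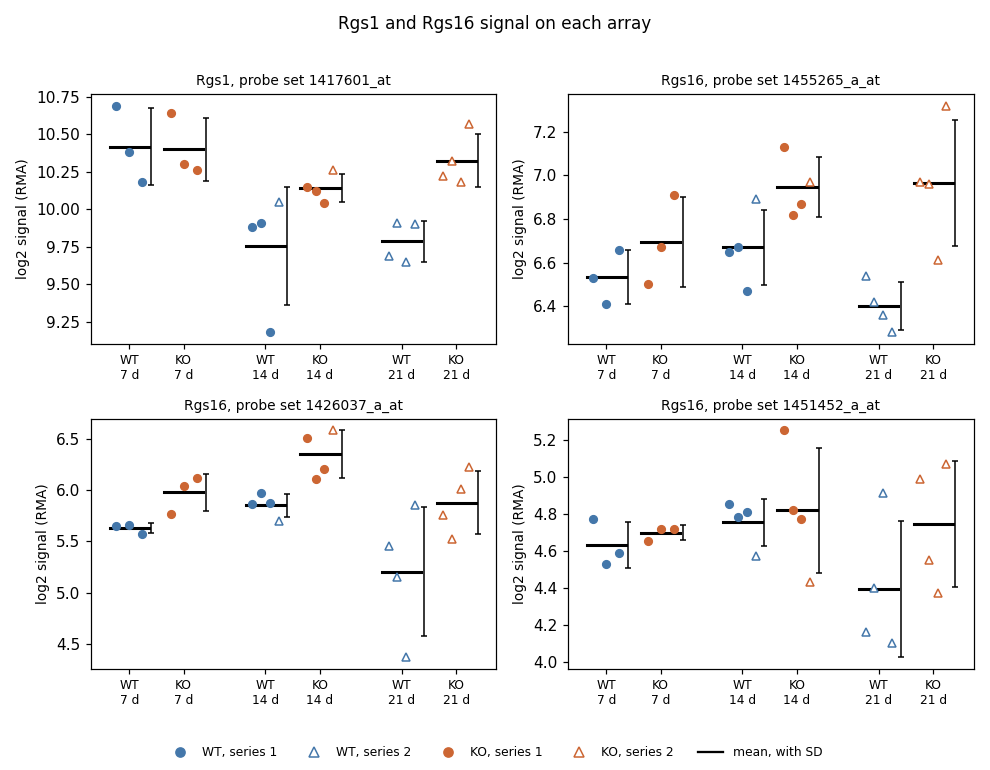
*Rgs1* and *Rgs16* log2 signal (y axis) of each array by genotype and day (x axis), with circles for series 1, open triangles for series 2, lines for group means and bars for SD. At 21 d the *Mmp13*-/- arrays lie above the WT arrays for *Rgs1* (10.18 to 10.57 against 9.65 to 9.91) and for *Rgs16* probe set 1455265_a_at (6.61 to 7.32 against 6.28 to 6.54).

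Beside *Rgs1* and *Rgs16*, immediate early genes had mostly higher means in *Mmp13*-/- tissue at 21 d. Of 20 such genes measured, 18 had a higher mean in *Mmp13*-/- tissue at 21 d (median 0.29, against -0.01 over all genes), with none past the test. Their mean level per array ran from 7.99 to 8.07 in *Mmp13*-/- and from 7.53 to 7.94 in WT tissue at that day. At 7 d only 3 had a higher and 16 a lower mean in *Mmp13*-/- tissue (median -0.17), whereas the 3 *Rgs16* probe sets had higher means there (by 0.067 to 0.35). From 7 d to 14 d *Rgs1* fell in WT tissue and *Rgs16* 1455265_a_at changed by 0.10 and 0.21. Over these days 18 of 20 immediate early genes had a lower mean at 14 d in WT and 16 of 20 in *Mmp13*-/- tissue (medians -0.51 and -0.36). The fall was called for 7 in WT tissue (*Nr4a3*, *Ier3*, *Junb*, *Fos*, *Nr4a1*, *Dusp1* and *Zfp36*, by 0.55 to 1.04 on the log2 scale), beside 166 of all 18193 genes. In *Mmp13*-/- tissue it was called for 4 (*Ier3*, *Klf4*, *Nr4a3* and *Zfp36*), beside 88 of all genes. Without WT 7 d replicate 1, *Nr4a3* and *Junb* were called in WT tissue (median -0.58). The mean level per array was 8.48 to 8.62 in WT tissue at 7 d and 7.98 to 8.26 at 14 d. The part of these genes' response in the *Rgs1* and *Rgs16* values was not tested.

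*Rgs10* (1416882_at), a small regulator known from microglia and macrophages, had its highest signals at 21 d. The WT arrays read 8.42, 8.52 and 8.18 at 7 d, 8.46, 8.60, 8.26 and 8.90 at 14 d, and 9.27, 9.25, 9.49 and 9.06 at 21 d. Arrays of *Mmp13*-/- tissue read 8.27, 8.28 and 7.98 at 7 d, 8.49, 8.68, 8.75 and 8.82 at 14 d, and 9.10, 8.95, 9.06 and 8.91 at 21 d. Every 21 d array exceeded every earlier array. The 21 d arrays are all of series 2, and the 14 d arrays of that series read 8.90 and 8.82. With the series term the WT change from 14 d to 21 d was 0.47 (95% interval 0.16 to 0.79, adjusted p = 0.154 in limma) and the *Mmp13*-/- change 0.08 (-0.24 to 0.40, adjusted p = 0.863). Without that term the WT change was 0.71 (adjusted p = 0.00308), and within series 2 it was 0.37. From 7 d to 14 d *Rgs10* changed by 0.10 in WT and 0.43 in *Mmp13*-/- tissue (adjusted p of 0.974 and 0.199 in limma). The genotype difference was -0.20 at 7 d (95% interval -0.47 to 0.08), 0.13 at 14 d and -0.26 at 21 d (-0.50 to -0.02, adjusted p = 0.373), with none past the test. Its value at 21 d minus that at 14 d was -0.39 (95% interval -0.73 to -0.05), which did not pass either (adjusted p = 0.690 in limma).

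*Rgs18* encodes a regulator found in megakaryocytes, platelets and myeloid cells, and its 2 probe sets disagreed as deposited. On 1420398_at the 14 d arrays read 6.97, 7.09, 6.98 (series 1) and 6.70 (series 2) in WT tissue and 7.25, 7.43, 7.78 (series 1) and 6.32 (series 2) in *Mmp13*-/- tissue. On 1449856_at they read 5.69, 6.01, 5.31 and 6.74 in WT and 5.82, 6.23, 6.41 and 6.40 in *Mmp13*-/- tissue in the same order. Series 2 read lower on the former probe set (offset -0.74, adjusted p = 0.0405) and higher on the latter (0.66, adjusted p = 0.118). The correlation between them over 22 arrays was 0.04 as deposited and 0.88 with the offset removed.

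With the series term, both *Rgs18* probe sets had a positive WT change from 14 d to 21 d, of 0.89 (95% interval 0.33 to 1.44, adjusted p = 0.129 in limma) and 0.83 (0.19 to 1.48, adjusted p = 0.223), and neither passed the test. Within series 2, against the single WT 14 d array, the changes were 0.57 and 0.52, and without WT 14 d replicate 4 they were 1.42 and 1.35. Without the series term they were 0.33 and 1.33, and the latter passed the test (adjusted p = 0.00472 in limma). In *Mmp13*-/- tissue the changes were 0.37 and 0.33 (adjusted p of 0.568 and 0.682). Genotype differences were -0.23 and -0.08 at 7 d, 0.26 and 0.28 at 14 d, and -0.26 and -0.23 at 21 d, and the intervals at 7 d and 21 d all included 0. The 14 d values had opposite signs in the series, 0.47 and 0.48 in series 1 and -0.38 and -0.34 in series 2. Platelet and megakaryocyte markers (7 genes) averaged 5.80 to 6.45 over all arrays with none past the test.

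**Figure D4:**
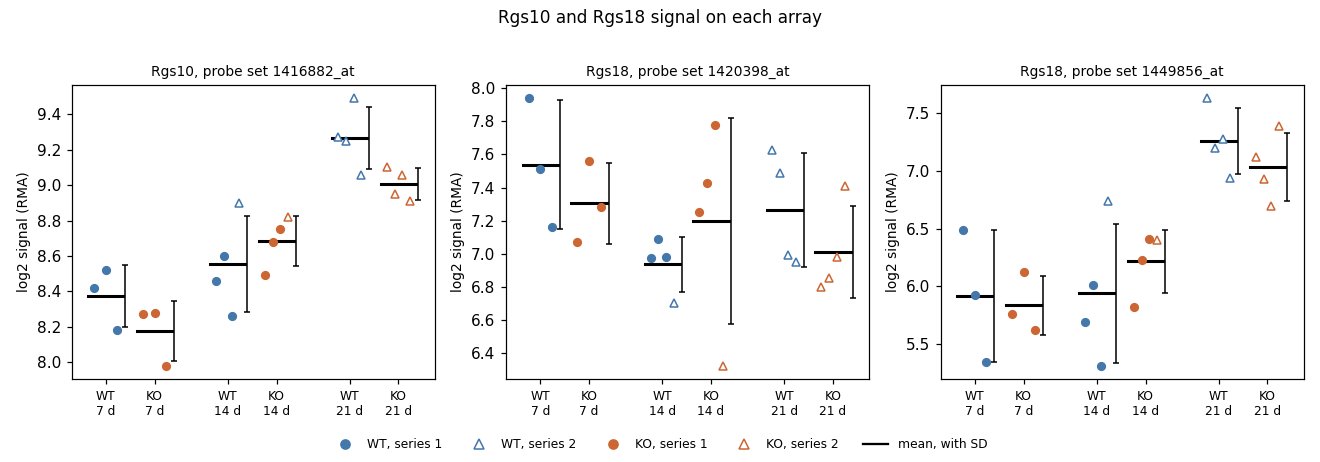
*Rgs10* and *Rgs18* log2 signal (y axis) of each array by genotype and day (x axis), with circles for series 1, open triangles for series 2, lines for group means and bars for SD. *Rgs10* lies highest at 21 d (8.91 to 9.49), and at 14 d the series 2 triangles of *Rgs18* lie lowest on 1420398_at and high on 1449856_at.

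*Rgs3*, which encodes a regulator with several isoforms of different length, gave no call on any of its 4 probe sets in any comparison. On 1425296_a_at the WT arrays read 8.60, 8.50 and 8.80 at 7 d, 8.33, 8.55, 8.44 and 8.42 at 14 d, and 8.30, 8.10, 8.30 and 8.15 at 21 d. The *Mmp13*-/- arrays read 8.50, 8.48 and 8.33 at 7 d, 8.18, 8.19, 8.33 and 8.38 at 14 d, and 8.24, 8.28, 7.95 and 8.11 at 21 d. Group means went from 8.63 ± 0.15 (SD, n = 3) in WT tissue at 7 d to 8.15 ± 0.15 (SD, n = 4) in *Mmp13*-/- tissue at 21 d. The genotype difference was -0.20 (95% interval -0.43 to 0.04) at 7 d, -0.17 at 14 d and -0.07 (-0.27 to 0.13) at 21 d. On 1425701_a_at it was -0.26, -0.29 and -0.28, and on 1454026_a_at 0.17, -0.04 and 0.12, so the probe sets did not share a direction. Correlations between pairs of *Rgs3* probe sets over the 22 arrays ran from -0.64 to 0.63 as deposited and from -0.45 to 0.20 with the offset removed.

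**Figure D5:**
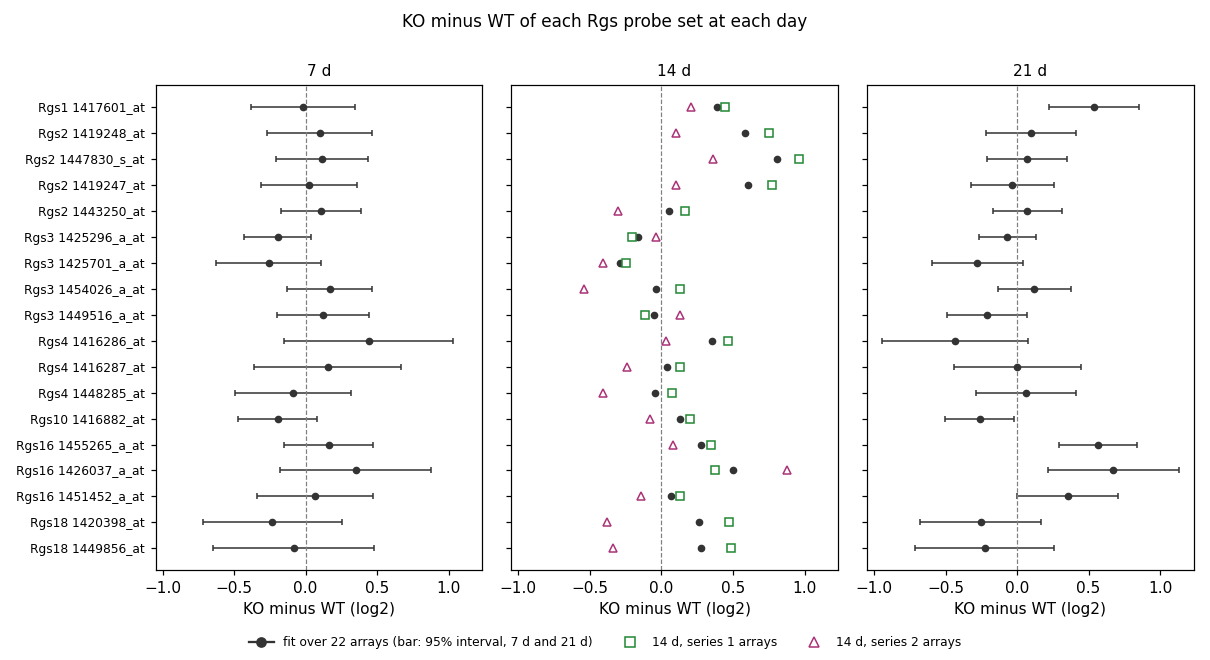
*Mmp13*-/- minus WT log2 difference (x axis) of the 18 probe sets (y axis) by day, with points for the fit over 22 arrays, bars for 95% intervals at 7 d and 21 d, open squares for 14 d series 1 and open triangles for 14 d series 2. The *Rgs2* points lie near 0 at 7 d and 21 d, and at 14 d its bright probe sets stand at 0.59 to 0.81 with the series 1 squares to the right of the series 2 triangles.

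Counted over the 18 probe sets, calls were few between genotypes and more frequent between 7 d and 14 d. Genotypes gave no call at 7 d (0.00888% of all probe sets were called), 1 call at 14 d (*Rgs2* 1447830_s_at; 0.0178% of all; 6 of 18 at an unadjusted p under 0.05, against 3.98%), which follows from the choice of the genes, and none at 21 d (0.0488% of all). At an unadjusted p under 0.05 the counts in limma were 0 at 7 d (2.16% of all probe sets) and 5 at 21 d (11.9% of all), the latter being *Rgs1*, *Rgs10* and the 3 *Rgs16* probe sets. From 7 d to 14 d, 4 of 18 were called in WT tissue, against 1.70% of all probe sets, and 2 of 18 in *Mmp13*-/- tissue, against 0.628% (6 at an unadjusted p under 0.05, against 6.65%). Those 6 include *Rgs2* 1447830_s_at and 1419247_at, whose changes rest on the 14 d arrays that the choice used. The 3 *Rgs4* probe sets called higher at 14 d in WT tissue compare with 1.13% of all probe sets, and the 2 in *Mmp13*-/- tissue with 0.326%. The other WT call was that of *Rgs1*. The *Rgs4* probe sets measure 1 gene and correlated at r = 0.82 to 0.94 over the arrays with the offset removed. Their calls are thus not independent of each other, and the shares are given as descriptions. From 14 d to 21 d none was called in WT tissue (0.420% of all; 7 of 18 at an unadjusted p under 0.05, against 14.1%) or *Mmp13*-/- tissue (0.0799% of all; 1 of 18, against 13.7%). The 7 in WT tissue include *Rgs2* 1419247_at, and the 1 in *Mmp13*-/- tissue is *Rgs2* 1447830_s_at. Both of these changes also rest on the 14 d arrays that the choice used. The change of the genotype difference gave no call in either interval among the 18 or among all probe sets (0%), with 3 and 5 of the 18 at an unadjusted p under 0.05 in limma (2.29% and 6.58% of all), of which 3 and 3 were *Rgs2* probe sets and follow from the choice of that gene.

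Separation of the arrays by genotype without overlap was seen on few of the 18 probe sets at each day, given here beside the share of all probe sets. At 7 d, 1 of 18 probe sets (*Rgs16* 1426037_a_at) had every *Mmp13*-/- array above every WT array (3.93% of all probe sets) and none had the reverse (4.05% of all). At 14 d, 2 lay above (*Rgs2* 1419248_at and *Rgs16* 1426037_a_at; 1.62% of all) and none below (1.90% of all). This 14 d count describes values the genes were chosen on and supports nothing. At 21 d, 2 lay above (*Rgs1* and *Rgs16* 1455265_a_at; 1.37% of all) and 1 below (*Rgs4* 1416286_at; 1.61% of all).

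The rest of the RGS family changed little. Of 15 other members looked up, 12 were measured, 6 of them with a mean below the median of all probe sets, and none was called in any of the 9 comparisons. *Rgs5*, a pericyte regulator next to *Rgs4* in the genome, was the exception in size, with a change from 7 d to 14 d of 1.29 in WT (adjusted p = 0.212 in limma) and -0.09 in *Mmp13*-/- tissue, and the WT change was 0.44 (adjusted p = 0.705) without WT 7 d replicate 1. Family medians lay between -0.09 and 0.05 in the comparisons of genotypes and days, beside medians of all genes within 0.01 of 0.

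Among the G proteins that RGS proteins act on, no gene was called between genotypes. Of 13 alpha subunits, *Gnas*, the stimulatory subunit, rose in WT tissue from 14 d to 21 d by 0.56 (adjusted p = 0.0497 in limma). This change depends on the fitted offset between the series, and no check without the series term is given for it. Of 13 beta and gamma subunits, *Gng4* fell from 7 d to 14 d by 1.39 in WT and by 1.36 in *Mmp13*-/- tissue on the log2 scale, and *Gng11* and *Gng12* rose in WT tissue by 0.79 and 0.45. Of 13 effectors, phospholipase C beta isoforms and adenylyl cyclases, *Adcy3* rose in WT tissue by 0.67 over the same days. Of the WT changes from 7 d to 14 d here, only that of *Gng11* lost its call without WT 7 d replicate 1 (0.55, adjusted p = 0.0618 in limma). None of 6 receptor kinases and arrestins, 9 other modulators and 4 partners of RGS proteins was called in these comparisons. Over all 18193 genes, 296 were called higher and 166 lower from 7 d to 14 d in WT tissue, and 84 and 88 in *Mmp13*-/- tissue. From 14 d to 21 d the counts were 39 and 63 in WT and 4 and 5 in *Mmp13*-/- tissue. No gene had a called change of the genotype difference from 7 d to 14 d, so the genotypes were not shown to differ in these changes.

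Of 20 vascular receptors that couple to G proteins, 15 had a higher mean at 14 d than at 7 d in WT tissue, and 3 of these rises were called. Over all genes, 49.2% had a higher mean at 14 d in WT tissue and 296 of 18193 were called higher. The prostaglandin receptor gene *Ptger3* rose by 1.40, the thrombin receptor gene *F2r* by 1.35 and the vasopressin receptor gene *Avpr1a* by 1.18. All 3 were also called without WT 7 d replicate 1. None of the 20 was called in *Mmp13*-/- tissue over these days. The change of the genotype difference was not called for any of them either, so the genotypes were not shown to differ in these rises. In *Mmp13*-/- tissue *Adra1b*, an alpha-1 adrenergic receptor gene with a mean of 3.62, rose from 14 d to 21 d by 0.91. Of 14 leukocyte receptors, the fractalkine receptor gene *Cx3cr1* rose from 7 d to 14 d by 1.24 in WT and 1.29 in *Mmp13*-/- tissue (in WT 1.12, adjusted p = 0.0513, without WT 7 d replicate 1), and *Fpr2*, a formyl peptide receptor gene, fell by 2.00 on the log2 scale in WT tissue from 14 d to 21 d. The changes of *Adra1b* and *Fpr2* from 14 d to 21 d depend on the fitted offset between the series, and no check without the series term is given for them. No receptor was called between genotypes.

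The genes with the most similar pattern over the 22 arrays, with the series offset removed, were sought among 11788 genes. For *Rgs4* they were *Fbn2*, *F2r* and *Kif26b* (r = 0.96, 0.95 and 0.94), for *Rgs10* *Wwp1*, *Abhd12* and *Naxd* (0.94, 0.93 and 0.91), and for *Rgs1* *Ncf1*, *Tmem62* and *Pdcd6* (0.89, 0.88 and 0.88). For *Rgs2* they were *AA414768*, *Fzd7* and *Cyria* (0.85, 0.84 and 0.79), and for *Rgs16* *Akap2*, *Cux2* and *Iqgap3* (0.79, 0.72 and 0.72). Those of *Rgs3* were *Adar*, *Vcan* and *Ifit1bl2* (0.87, 0.86 and 0.86), and those of *Rgs18* were *Slc35b3*, *Arhgap9* and *Clec4b1* (0.90, 0.87 and 0.87). As deposited, r was 0.43, 0.10 and 0.64 for the genes named for *Rgs18*, 0.52 for *Rgs1* with *Pdcd6*, and between 0.58 and 0.96 for the other pairs. These correlations share arrays, groups and the removed offset and are given as descriptions.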

How the data were processed

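Gene expression was measured in granulation tissue of WT and Mmp13-/- mice on 22 Affymetrix GeneChip arrays. The authors checked array quality, normalised the arrays with RMA and deposited log2 values per probe set. Neither the RMA version nor whether both hybridization series were normalised together is stated in the sources used here.

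With R 4.3.3 and limma 3.58.1, a linear model with 6 group means and the hybridization series as covariate was fitted to all arrays by lmFit and eBayes, with 15 residual degrees of freedom and 4.57 from the prior, without a filter on signal, leaving out 64 control probe sets. Benjamini-Hochberg adjustment ran over all 45037 probe sets, and calls needed an adjusted p under 0.05. Intervals are at 95%. The script was tested on simulated data. Names come from the platform annotation (34945 probe sets with 1 symbol, 932 with several, 9160 unnamed). For lists of other genes, the brightest probe set stands for a gene. The text gives values for the 7 genes' probe sets, the most similar genes and called genes of the lists it describes. Members and lists were chosen with earlier results of these data known. The number of arrays limits precision, and p-values reflect the spread among these arrays alone. Promoters are from RefSeq (GRCm38.p6) and were searched with Python 3. Alternatives were no series term, each series alone, arrays of 1 day, a replicate block, median centring, array weights, eBayes with trend, only brighter probe sets, unadjusted p-values and leaving out each array. Gene lists without WT 7 d replicate 1 were added after seeing the data.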

Additional observations from a re-analysis of the deposited data

Results flagged for a closer look

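*Rgs3* probe set 1449516_a_at had a single array far from the other 3 in 3 groups. WT 14 d replicate 3 read 5.10 (others 4.67 to 4.72), WT 21 d replicate 3 read 5.28 (others 4.69 to 4.74), and *Mmp13*-/- 21 d replicate 1 read 4.50 (others 4.68 to 4.71). Of the 72 groups of 4 arrays examined over the 18 probe sets, these 3 met Dixon's criterion, which chance meets in about 1 of 20. The other *Rgs3* probe sets did not meet it on these arrays.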

How the results depend on the processing

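The 18 probe sets' call counts depended on the setting as follows. Those between genotypes at 14 d, and *Rgs2* in any count that involves the 14 d arrays, describe values the genes were chosen on and support nothing. At 14 d between genotypes the 1 call became 0 without the series term, in series 2 alone, with only the 14 d arrays, with a replicate block and with arrays centred on their medians, became 3 with array quality weights and 6 at an unadjusted p under 0.05, and ranged from 0 to 1 with single arrays left out. At 21 d it was 5 unadjusted and 0 to 1 with single arrays left out (1 without *Mmp13*-/- 21 d replicate 3). From 7 d to 14 d the 4 calls in WT tissue became 2 without the series term and 2 in series 1 alone, and 1 to 4 with single arrays left out (1 without WT 14 d replicate 3). The 2 in *Mmp13*-/- tissue became 1 without the series term, 5 with array weights and 6 unadjusted, and 1 to 3 with single arrays left out. From 14 d to 21 d, WT tissue gave 3 without the series term and 7 unadjusted, and *Mmp13*-/- tissue 1 unadjusted. Changes of the genotype difference gave 3 and 5 unadjusted. One value turned its sign, the *Rgs2* 1447830_s_at change of -0.61 in *Mmp13*-/- tissue from 14 d to 21 d, which was 0.11 without the series term. The cause of these shifts was not tested. Same-numbered arrays of the genotypes correlated between -0.16 and 0.50 (10 pairs, 2 above 0.1). The highest value was that of 7 d replicate 3, where each array matched the other best. With so few arrays per group this cannot exclude a pairing, and the main fit used none. With the replicate block *Rgs4* 1416287_at passed in *Mmp13*-/- tissue (adjusted p = 0.0428 in limma).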
